A study of Mus musculus with 24 samples.

Results

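MLL1 and Menin were mapped by chromatin immunoprecipitation and sequencing (ChIP-seq) in mouse leukaemia cells, and the sites described here are narrow regions at gene ends that were called for MLL1 in all 4 lines and for Menin in both lines in which it was mapped. There were 1272 of them, which is 5.64% of the 22534 MLL1 regions called in NUP98-HOXA9 cells in DMSO and 19.0% of the 6686 regions of that list that were narrow and at a gene end. The members were chosen by measured values: the width, the position and the calls of the DMSO lists. A site had to be narrower than 1000 bp in the MLL1 list of NUP98-HOXA9 cells and lie within 1 kb of either end of a protein-coding gene. It also had to share at least 1 bp with a DMSO region of MLL1 in the 3 other lines and with a DMSO region of Menin in NUP98-HOXA9 and NUP98-HOXD13 cells. Presence in DMSO, the width limit and the closeness to a gene end are therefore not findings, while the VTP50469 lists and both H3K4me3 lists played no part in the choice. A call in every one of these DMSO lists was required, so neither high DMSO folds nor the overlap of the DMSO regions is a finding.

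The study asked how leukaemias with a rearranged NUP98 gene depend on the contact between MLL1 and menin. VTP50469 is a small molecule that occupies the pocket of menin into which MLL1 binds, and DMSO is its solvent. All 24 libraries came from cells labelled as mouse leukaemia, grown with IL-3, IL-6 and SCF, and each line carries 1 NUP98 fusion, with HOXA9, HOXD13, JARID1A or NSD1 as the partner. Peak lists of 14 libraries were analysed, in 7 pairs: MLL1 in NUP98-HOXA9 after 72 h of 2 µM VTP50469 against DMSO, MLL1 in NUP98-JARID1A and NUP98-HOXD13 after 96 h of 2 µM, MLL1 in NUP98-NSD1 after 96 h of 200 nM, Menin in NUP98-HOXA9 and in NUP98-HOXD13 after 96 h of 2 µM, and H3K4me3 in NUP98-HOXA9 after 96 h of 2 µM. The dose of NUP98-NSD1 follows the labels of its libraries, while the protocol of the whole series names 2 µM. The other 10 libraries were input chromatin. Among the 24, the inputs of NUP98-NSD1 and of NUP98-HOXA9 at 96 h are of VTP50469 cells alone, so a DMSO input to match the DMSO lists of MLL1 in NUP98-NSD1 and of Menin and H3K4me3 in NUP98-HOXA9 was not analysed here. The labels give no strain, sex or age and do not say how many animals or clones stand behind a line. In NUP98-HOXA9 cells in DMSO, H3K4me3 lay at the ends of 12 of 30 myeloid differentiation genes and 13 of 22 stem and progenitor regulators, against 0 of 22 lymphoid and 0 of 13 mast cell and basophil markers and 1 of 20 erythroid and megakaryocyte markers. Over all protein-coding genes the share was 36.8%, so the 40% of the myeloid list does not stand out, and no further check of the cell type was made.

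MLL1, encoded by Kmt2a, is a histone methyltransferase that places methyl groups on lysine 4 of histone H3, and it reaches CpG-rich promoters in part through a CXXC domain that binds unmethylated CpG. Menin, encoded by Men1, is a scaffold that holds the amino end of MLL1 and ties it to LEDGF on chromatin. H3K4me3, trimethylated lysine 4, marks the starts of active and poised genes. In leukaemias driven by HOX and MEIS genes, MLL1 and menin also cover long stretches over those genes. The sites described here were narrow in NUP98-HOXA9 cells in DMSO and were called in every line, at widths that varied.

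The promoters of 7 sites show what these places look like. Each line gives the 250 bases before a RefSeq gene start (GRCm38.p6, the build called mm10), 5′ to 3′ on the strand of the gene, and capitals mark matches on either strand to short motifs of the ETS, CREB, NRF1 and SP families that are described further on. Arid3b (chr9:57836780-57837029, minus strand) and AW549877 (chr15:3995747-3995996, minus strand) are shown because Menin stayed called there in NUP98-HOXA9 and MLL1 in NUP98-NSD1, Npc2 (chr12:84773113-84773362, minus strand) and Nemp1 (chr10:127676815-127677064, plus strand) because MLL1 stayed in all 4 treated lists, Pole4 (chr6:82652875-82653124, minus strand) because it lacked H3K4me3, Btbd8 (chr5:107437680-107437929, plus strand) because MLL1 was lost from NUP98-HOXD13, and Arl5b (chr2:15055070-15055319, plus strand) because it holds CREB letters.
Arid3b: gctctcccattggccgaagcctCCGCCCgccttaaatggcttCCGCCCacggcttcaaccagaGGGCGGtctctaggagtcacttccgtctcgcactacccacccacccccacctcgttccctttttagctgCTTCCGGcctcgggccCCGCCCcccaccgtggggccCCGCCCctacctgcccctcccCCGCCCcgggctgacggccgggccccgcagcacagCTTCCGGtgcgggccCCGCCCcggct
AW549877: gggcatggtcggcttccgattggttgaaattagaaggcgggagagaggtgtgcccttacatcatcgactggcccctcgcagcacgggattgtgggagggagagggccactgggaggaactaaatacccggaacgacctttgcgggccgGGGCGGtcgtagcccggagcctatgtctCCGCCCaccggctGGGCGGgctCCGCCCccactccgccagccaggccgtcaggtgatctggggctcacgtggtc
Npc2: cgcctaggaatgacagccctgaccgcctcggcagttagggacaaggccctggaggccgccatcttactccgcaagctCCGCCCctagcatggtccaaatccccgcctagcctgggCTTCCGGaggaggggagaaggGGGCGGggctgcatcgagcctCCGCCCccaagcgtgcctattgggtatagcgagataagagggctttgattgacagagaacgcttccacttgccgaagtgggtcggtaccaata
Nemp1: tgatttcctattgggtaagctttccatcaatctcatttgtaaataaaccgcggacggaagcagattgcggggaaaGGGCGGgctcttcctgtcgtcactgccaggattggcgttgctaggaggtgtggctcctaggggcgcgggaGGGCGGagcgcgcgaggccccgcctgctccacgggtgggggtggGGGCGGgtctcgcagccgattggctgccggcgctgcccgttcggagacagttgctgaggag
Pole4: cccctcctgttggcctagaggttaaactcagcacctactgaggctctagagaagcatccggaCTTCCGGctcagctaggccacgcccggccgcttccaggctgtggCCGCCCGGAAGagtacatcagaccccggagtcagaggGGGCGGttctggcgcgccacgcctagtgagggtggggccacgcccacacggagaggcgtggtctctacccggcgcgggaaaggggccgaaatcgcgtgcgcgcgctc
Btbd8: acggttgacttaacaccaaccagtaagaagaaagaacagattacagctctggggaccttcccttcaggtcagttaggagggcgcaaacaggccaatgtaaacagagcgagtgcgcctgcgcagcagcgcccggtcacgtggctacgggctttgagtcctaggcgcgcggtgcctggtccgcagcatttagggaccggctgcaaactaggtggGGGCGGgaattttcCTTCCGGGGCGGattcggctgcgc
Arl5b: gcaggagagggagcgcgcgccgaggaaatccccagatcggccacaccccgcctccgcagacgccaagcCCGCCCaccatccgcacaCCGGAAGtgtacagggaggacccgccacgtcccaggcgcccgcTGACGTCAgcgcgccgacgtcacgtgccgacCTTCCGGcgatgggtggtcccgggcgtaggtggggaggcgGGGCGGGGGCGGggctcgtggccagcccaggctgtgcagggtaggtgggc

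GC content of these 250 bases was 72.8% at Arid3b and 59.6% at Btbd8, and the SP letters occurred 7 times at Arid3b and 2 times at Btbd8. The MLL1 summit in NUP98-HOXA9 cells in DMSO lay 34 bp upstream of the Npc2 start, 43 bp upstream of the Btbd8 start and 126 bp upstream of the Arid3b start. The capitals show both ETS matches of Arid3b and the run in Btbd8 where an ETS match and an SP match overlap.

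The 14 lists differed in length, and 2 of the treated lists were short. The MLL1 list of NUP98-NSD1 held 1036 regions after VTP50469 and 7113 in DMSO, and the Menin list of NUP98-HOXA9 held 403 after VTP50469 and 9050 in DMSO. For MLL1 there were 21739 regions after VTP50469 and 22534 in DMSO in NUP98-HOXA9, 14744 after VTP50469 and 20154 in DMSO in NUP98-HOXD13, and 24950 after VTP50469 and 15765 in DMSO in NUP98-JARID1A. Menin of NUP98-HOXD13 had 16706 after VTP50469 and 18826 in DMSO, and H3K4me3 of NUP98-HOXA9 had 9567 after VTP50469 and 9443 in DMSO. Each condition was 1 library, so there is no replicate error and no test. The 95% Wilson intervals below cover counting error over regions only, and regions of 1 library are not independent samples. Read depth is unknown, and a site is called lost when no treated region of the same pair shares a base with it, which includes enrichment too weak to be called.

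MLL1 stayed at nearly all of these sites in 3 of the 4 lines after VTP50469 and was gone from most of them in NUP98-NSD1. In NUP98-HOXA9 none of the 1272 sites was lost, which allows a share of up to 0.236%, while 12.7% of the 5414 other narrow gene-end regions (interval 11.9% to 13.6%) and 21.5% of all DMSO regions of that list were. In NUP98-JARID1A none was lost either, against 2.42% of the 4092 other narrow gene-end regions called there and 8.62% of all DMSO regions. The treated list was the longer one there, and with both lists cut to equal length by fold 21 sites were lost, 1.65%. In NUP98-HOXD13, 8 sites were lost, 0.629% (interval 0.319% to 1.24%), against 18.6% of 4796 other narrow gene-end regions and 32.7% of all DMSO regions. Where a region had to cover 50% of a site to count, this share was 5.77%, or 73 of 1265 sites. In NUP98-NSD1, labelled as treated at 200 nM, 1154 sites were lost, 90.7% (interval 89.0% to 92.2%), against 96.6% of 932 other narrow gene-end regions (interval 95.2% to 97.6%) and 88.8% of all DMSO regions. The share of sites lost from NUP98-NSD1 was thus close to the share of that whole list. Each share of all DMSO regions is over the line's own list, while the sites are regions of the NUP98-HOXA9 list. Of the NUP98-HOXA9 DMSO MLL1 regions also called in the other line in DMSO, 22.0% were lost from NUP98-HOXD13. Such losses were 4.64% from NUP98-JARID1A and 87.4% from NUP98-NSD1. The other narrow regions were weaker peaks in the NUP98-HOXA9 DMSO list, with a median fold of 9.64 against 21.0 at the sites. Losses in like ranges of fold are given below for MLL1 in NUP98-NSD1 and NUP98-HOXD13. They were not compared for MLL1 in NUP98-HOXA9 or NUP98-JARID1A, and the part of peak strength there was not tested.

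Regions that met every part of the rule but the width, 1000 bp or wider in NUP98-HOXA9 in DMSO, numbered 1413. They lost no region from NUP98-HOXA9 or NUP98-JARID1A and 1 region, 0.0708%, from NUP98-HOXD13, and the intervals of narrow and wide shared sites overlap in these lines. In NUP98-NSD1 the loss was 90.7% of the narrow sites and 76.2% of the wide ones (interval 73.9% to 78.4%), and the intervals do not overlap. Among the MLL1 pairs the labelled lower dose and the short treated list go with NUP98-NSD1 alone, and line, dose and list length cannot be told apart there.

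**Figure D1:**
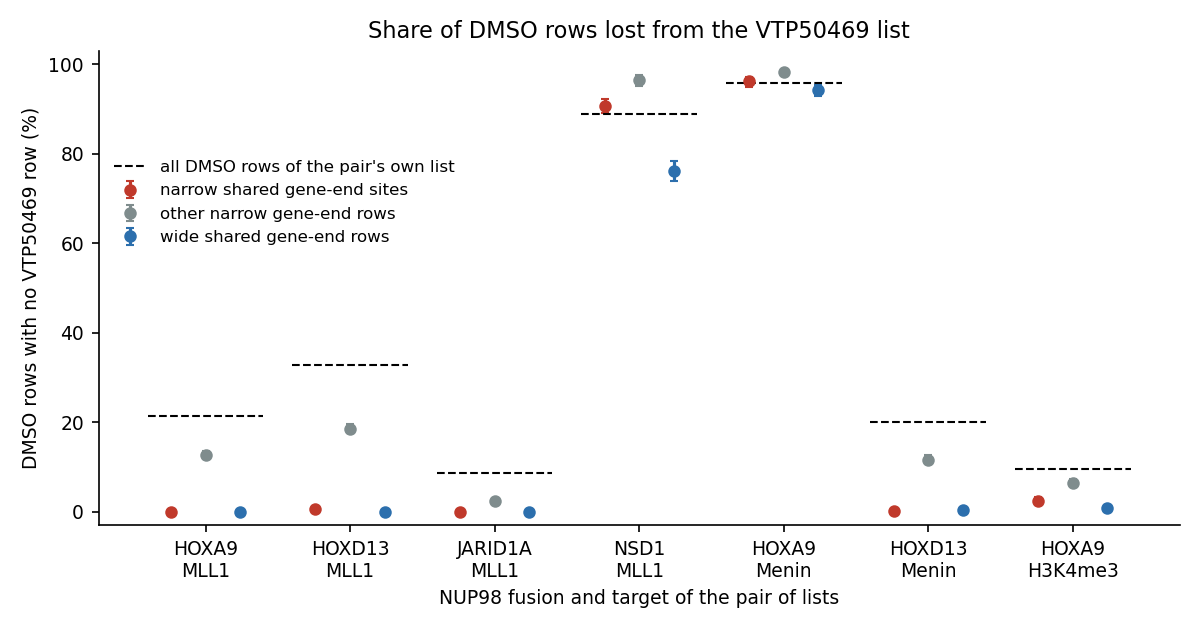
Percent of DMSO regions that no VTP50469 region overlaps (y axis) for each pair of lists (x axis: fusion partner and target), for the narrow shared gene-end sites, the other narrow gene-end regions and the wide shared gene-end regions of the NUP98-HOXA9 DMSO MLL1 list; bars are 95% Wilson intervals and dashed lines are all DMSO regions of the pair's own list. The narrow shared sites lie at 0.629% or lower for MLL1 in NUP98-HOXA9, NUP98-HOXD13 and NUP98-JARID1A, and at 90.7% for MLL1 in NUP98-NSD1 and 96.1% for Menin in NUP98-HOXA9.

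Taken site by site, 118 of the 1272 (9.28%) had MLL1 in all 4 treated lists, 1146 (90.1%) lost it from NUP98-NSD1 alone, and 8 lost it from NUP98-NSD1 and NUP98-HOXD13. No site lost MLL1 from 3 or 4 treated lists. The 90.1% stands beside the 88.8% of all DMSO regions lost from NUP98-NSD1, and these patterns were not counted for other regions. The 6 sites of highest fold among the 118 lay at Arid3b, which encodes a DNA-binding protein of the ARID family, at the shared promoter of Isca2 and Npc2, a mitochondrial iron-sulphur cluster assembly factor and a lysosomal cholesterol carrier, at Pkd1, which encodes polycystin 1, at Nemp1, a protein of the nuclear envelope, at AW549877, and at Ralgapa2, a subunit that inactivates Ral GTPases. The fold is the authors' enrichment ratio of a peak and is used here only to rank within 1 list. The Arid3b site (chr9:57836503-57837247) had the highest fold of all sites, 62.4, against a median of 21.0 and a range of 4.82 to 62.4 over the 1272.

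At Arid3b the MLL1 region of NUP98-HOXA9 was 738 bp wide after VTP50469 and 745 bp in DMSO. It was 476 bp after VTP50469 and 565 bp in DMSO in NUP98-HOXD13, 708 bp after VTP50469 and 508 bp in DMSO in NUP98-JARID1A, and 309 bp after VTP50469 and 359 bp in DMSO in NUP98-NSD1. Menin was 322 bp wide after VTP50469 and 419 bp in DMSO in NUP98-HOXA9, and 715 bp after VTP50469 and 787 bp in DMSO in NUP98-HOXD13. H3K4me3 was 759 bp wide after VTP50469 and 663 bp in DMSO. Every one of the 14 lists had a region at Arid3b. At Isca2 and Npc2 (chr12:84772679-84773515, fold 54.1) MLL1 narrowed to 375 bp after VTP50469 in NUP98-NSD1, against 644 bp in DMSO, and Menin of NUP98-HOXA9 was not called after VTP50469, against 568 bp in DMSO. Nemp1 (chr10:127676538-127677309, fold 51.6) had the same pattern, with MLL1 at 259 bp after VTP50469 and 706 bp in DMSO in NUP98-NSD1.

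The 8 sites that lost MLL1 from NUP98-HOXD13, named here after their values were seen, lay at Btbd8, Tspan2, Tnfrsf1b, Eif2b3, E2f8, Rest, Copb1 and Ncoa1. Their median NUP98-HOXA9 fold was 8.79, and the last of them, Ncoa1, which encodes a nuclear receptor coactivator, had the lowest fold of all 1272, 4.82. At E2f8, which encodes an atypical repressor of the E2F family, the MLL1 region was absent after VTP50469 and 1972 bp wide in DMSO in NUP98-HOXD13, and absent after VTP50469 and 282 bp wide in DMSO in NUP98-NSD1. It was wider after VTP50469 in the other lines, at 1916 bp against 464 bp in DMSO in NUP98-HOXA9 and at 1914 bp against 479 bp in DMSO in NUP98-JARID1A. E2f8 also lost Menin in both lines. Tnfrsf1b, which encodes a receptor for TNF, had no MLL1 region after VTP50469 and one of 966 bp in DMSO in NUP98-HOXD13, while in NUP98-HOXA9 it had 474 bp after VTP50469 and 627 bp in DMSO.

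Menin went a different way in the 2 lines in which it was mapped. In NUP98-HOXA9, 1223 of the 1272 sites lost Menin, 96.1% (interval 94.9% to 97.1%), against 98.3% of 2021 other narrow gene-end regions, 94.2% of the wide shared ones and 95.9% of all DMSO Menin regions. In NUP98-HOXD13, 2 sites lost Menin, 0.157% (interval 0.0431% to 0.571%), against 11.6% of 4552 other narrow gene-end regions, 0.425% of the wide shared ones and 20.0% of all DMSO regions. Both were at 2 µM for 96 h, and losses in like ranges of fold were not compared for Menin in NUP98-HOXD13. With both lists of a pair cut to equal length by fold, 42 of the 69 sites still in the NUP98-HOXA9 DMSO Menin list were lost, 60.9%, and with a 50% overlap 2.76% of the sites lost Menin in NUP98-HOXD13. The 2 sites that lost Menin in NUP98-HOXD13, again named after their values were seen, lay at E2f8 and at Nxn. Nxn encodes the thioredoxin-related protein nucleoredoxin, and its lost site (chr11:76397404-76398388) lay 753 bp from a gene end. A second Nxn site, over a gene end (chr11:76398680-76399452), kept Menin in NUP98-HOXD13, at 535 bp after VTP50469 against 722 bp in DMSO. No site lost MLL1 in NUP98-HOXA9, so the count with MLL1 kept and Menin lost there is the same 1223 sites that lost Menin. Both proteins were kept at 1263 sites (99.3%) of NUP98-HOXD13, and neither count was made for other regions. The MLL1 lists of NUP98-HOXA9 are of 72 h and its Menin lists of 96 h, so the first count also spans a difference in time.

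The 49 sites that kept Menin in NUP98-HOXA9 had high Menin folds there in DMSO, with a median of 24.4 against 9.42 at the sites that lost it. By rank of NUP98-HOXA9 MLL1 fold the first 6 lay at Arid3b, Pkd1, Ippk, AW549877, Ap5z1 and Mief1. Ippk encodes the kinase that makes inositol hexakisphosphate, Ap5z1 a subunit of an adaptor complex of late endosomes, and Mief1 a receptor for the mitochondrial fission protein Drp1. At Ippk (chr13:49420825-49421670, fold 51.9) Menin was 245 bp wide after VTP50469 and 568 bp in DMSO, and MLL1 of NUP98-NSD1 was absent after VTP50469 and 1073 bp in DMSO. At Mief1 (chr15:80233654-80234322, fold 47.1) Menin was 228 bp after VTP50469 and 578 bp in DMSO.

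Sites that kept MLL1 in NUP98-NSD1 and sites that kept Menin in NUP98-HOXA9 had 16 in common. Those 16 are 13.6% of the 118 and 32.7% of the 49, and 2.86% of the 1154 sites that lost MLL1 from NUP98-NSD1 kept Menin in NUP98-HOXA9. Over all sites 3.85% kept Menin there and 9.28% kept MLL1 in NUP98-NSD1, so each share of the common sites is above its share over all. Both shares describe the same 16 sites, and they were not counted for other regions. Both kept sets also had higher NUP98-HOXA9 MLL1 folds. The medians were 28.9 against 20.1 for MLL1 kept in NUP98-NSD1 and 36.8 against 20.4 for Menin kept in NUP98-HOXA9. The part of fold in the common sites was not tested. Named after their values were seen, they lay at Arid3b, Pkd1, AW549877, Pole4, Klhl36, Atox1, Ifnar1, Avl9, Vcl, Tmem123, Limk1, Apaf1 with Ikbip, Cbwd1, Isy1, Larp1b and Prkra. They include Ifnar1, a subunit of the receptor for type I interferons, Apaf1, the scaffold of the apoptosome, Vcl, which encodes vinculin of cell adhesions, and Pole4, a subunit of DNA polymerase epsilon. At Pole4 (chr6:82652374-82653253, fold 42.2) Menin of NUP98-HOXA9 was 531 bp after VTP50469 and 658 bp in DMSO, the widest treated Menin region among these 16.

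Sites of weak DMSO peaks were lost more often. Sites were split at the quartiles of their own DMSO fold in the list concerned, and the remaining gene-end regions were put in the same ranges of fold without matching inside a range. From the lowest to the highest quartile, MLL1 of NUP98-NSD1 was lost at 95.4%, 90.9%, 90.6% and 87.3% of the sites, and at 93.1%, 92.2%, 90.1% and 78.6% of the remaining gene-end regions in the same fold ranges. In the top quartile the intervals were 83.5% to 90.3% for the sites and 76.2% to 80.8% for the remaining regions. Menin of NUP98-HOXA9 was lost at 100%, 100%, 99.4% and 85.7% of the sites and at 99.9%, 99.6%, 99.6% and 85.4% of the remaining regions, with intervals that overlap in every quartile. MLL1 of NUP98-HOXD13 was lost at 1.92% of the sites in the lowest quartile (interval 0.884% to 4.13%) and 29.4% of the remaining regions there, and at 0.318% or less of either in the 3 higher quartiles. In NUP98-HOXD13 the sites and the remaining regions thus separated in the lowest quartile alone, which spans folds of 4.23 to 14.4.

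H3K4me3 in NUP98-HOXA9, which the rule did not use, overlapped 1135 of the sites in DMSO, 89.2% (interval 87.4% to 90.8%), against 62.2% of the other narrow gene-end regions (interval 60.9% to 63.5%) and 96.2% of the wide shared ones. These classes had median MLL1 widths of 759 bp, 551 bp and 1349 bp, and the part of width in the overlap was not tested. After VTP50469, 27 of the 1135 had lost H3K4me3, 2.38% (interval 1.64% to 3.44%), against 6.53% of the other narrow gene-end regions, 0.809% of the wide shared ones and 9.60% of all DMSO H3K4me3 regions. Of all NUP98-HOXA9 DMSO MLL1 regions with H3K4me3 in DMSO, 5.53% lost it. With a 50% overlap the share of sites was 15.8%, 77 of 487. A further 55 sites had H3K4me3 after VTP50469 alone, 82 had it in neither list and 1108 in both. Of all treated H3K4me3 regions, 12.1% were called only there. At the same dose and time Menin was lost from 96.1% of the sites and H3K4me3 from 2.38% of those that had it. The Menin list held 403 regions after VTP50469 and 9050 in DMSO, and the H3K4me3 list 9567 after VTP50469 and 9443 in DMSO. The 2 losses are therefore not on a like footing, and a link between them was not tested.

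The 137 sites without H3K4me3 in DMSO had a median NUP98-HOXA9 MLL1 fold of 21.3, against 20.7 at the sites with it. Their nearest H3K4me3 region was a median of 25383 bp away, 26 had one within 1000 bp, and 92 had none within 10000 bp. An annotated start lay inside 66.9% of them and inside 83.0% of the sites with H3K4me3. The 4 of highest fold lay at AW549877, Ogg1, Pole4 and Srl. Ogg1 encodes the glycosylase that removes oxidised guanine, and Srl encodes sarcalumenin, a calcium-binding protein known from muscle. AW549877 had H3K4me3 661 bp wide after VTP50469 and none in DMSO, Ogg1 598 bp after VTP50469 and none in DMSO, and Pole4 and Srl none in either.

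Widths moved in different directions in the 4 lines. In NUP98-HOXD13 the MLL1 regions at the 1264 kept sites had a median width of 573 bp after VTP50469 and 777.5 bp in DMSO, a median VTP50469 to DMSO ratio of 0.74, and 90.1% were narrower after VTP50469, beside 79.8% of all kept regions of that list. In NUP98-NSD1 the 118 kept sites measured 341.5 bp after VTP50469 and 622.5 bp in DMSO, a ratio of 0.59, and 94.1% were narrower, beside 88.0%. In NUP98-JARID1A they measured 796.5 bp after VTP50469 and 675.5 bp in DMSO, a ratio of 1.16, and 32.2% were narrower, beside 24.2%. In NUP98-HOXA9 they measured 712 bp after VTP50469 and 759 bp in DMSO, a ratio of 0.97, and 55.3% were narrower, beside 55.8%. The rule set an upper width in the NUP98-HOXA9 DMSO list alone, so the ratio of that line is a description of sites chosen on one of its terms.

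Menin regions were narrower after VTP50469 in both lines. The 49 kept in NUP98-HOXA9 had a median width of 249 bp after VTP50469 and 542 bp in DMSO, and 100% were narrower, beside 85.6% of all kept regions of that list. The 1270 kept in NUP98-HOXD13 had 595.5 bp after VTP50469 and 690 bp in DMSO, a ratio of 0.87, and 83.3% were narrower, beside 72.3%. H3K4me3 at 1108 sites had 838 bp after VTP50469 and 772 bp in DMSO, a ratio of 1.06, and 39.9% were narrower, beside 40.3%, so the sites did not stand apart from that list. The wide shared regions of NUP98-HOXA9 measured 986 bp after VTP50469 and 1349 bp in DMSO, a ratio of 0.73. Both classes were split on that DMSO width, which is the denominator, so their ratios in NUP98-HOXA9 cannot be compared. The ratios of the wide regions elsewhere were 0.46 for NUP98-NSD1, 0.66 for NUP98-HOXD13 and 0.99 for NUP98-JARID1A. The width of a called region depends on depth and on the treated list's length, and their part was not tested. Summits moved little: the median shift between the VTP50469 and the DMSO summit was 26 bp for MLL1 in NUP98-HOXA9, 29 bp in NUP98-HOXD13, 33 bp in NUP98-JARID1A and 81.5 bp in NUP98-NSD1.

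**Figure D2:**
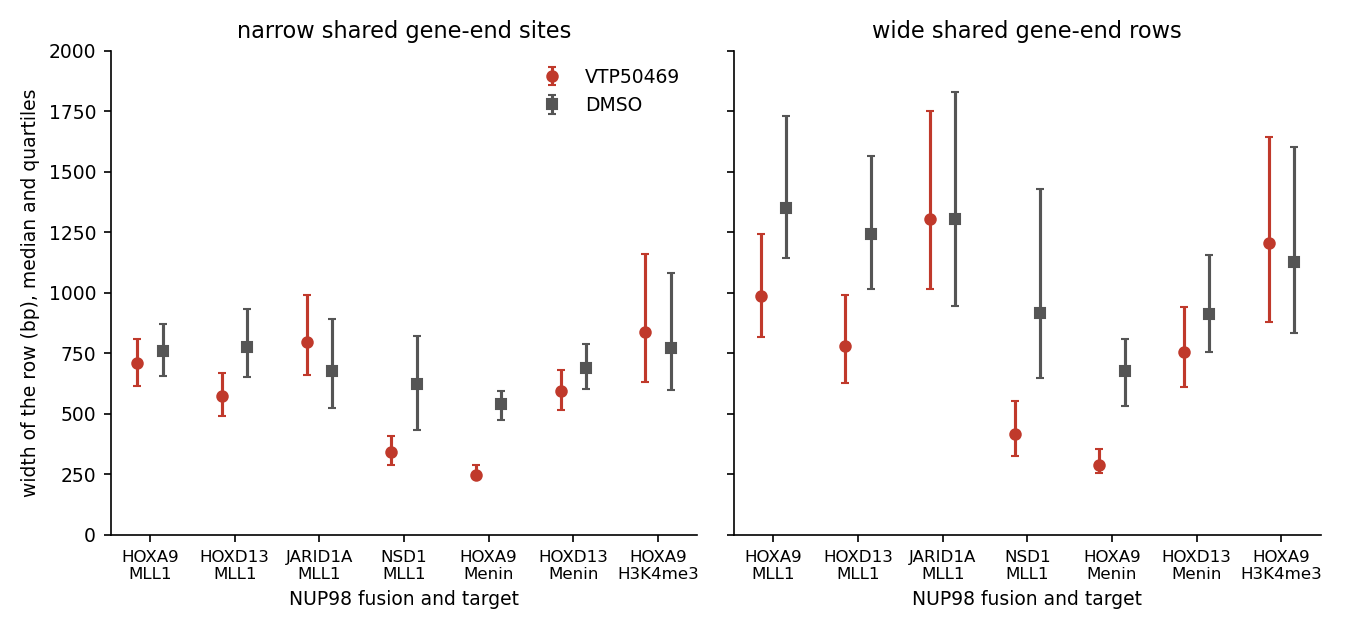
Width in bp (y axis, median with quartiles) of the VTP50469 and the DMSO region at sites called in both lists, for each pair of lists (x axis), at narrow shared gene-end sites (left) and wide shared gene-end regions (right). At the narrow sites the MLL1 medians are 573 bp after VTP50469 and 777.5 bp in DMSO in NUP98-HOXD13, and 796.5 bp after VTP50469 and 675.5 bp in DMSO in NUP98-JARID1A.

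In DMSO the summits of the 6 lists that define the sites lay close together, which the rule itself favours. Each site had to share a base with a region of every one of these lists. These distances were not measured in other classes of region, so the closeness is a description and not a finding. The MLL1 and Menin summits lay a median of 32 bp apart in NUP98-HOXA9 and 26 bp in NUP98-HOXD13, and 91.0% and 94.2% of the sites had them within 100 bp of each other. Relative to the NUP98-HOXA9 MLL1 summit, the MLL1 summit lay a median of 30 bp away in NUP98-HOXD13, 36 bp in NUP98-JARID1A and 107 bp in NUP98-NSD1. Median DMSO widths were 470 bp for MLL1 in NUP98-NSD1, 675.5 bp in NUP98-JARID1A, 759 bp in NUP98-HOXA9 and 777 bp in NUP98-HOXD13, and 391 bp for Menin in NUP98-HOXA9 and 690 bp in NUP98-HOXD13. A site narrow in NUP98-HOXA9 was not always narrow elsewhere: 55 sites (4.32%) were 1000 bp or wider in NUP98-NSD1, 231 (18.2%) in NUP98-HOXD13 and 239 (18.8%) in NUP98-JARID1A.

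Ranked by fold, the sites lay high in the NUP98-HOXA9 DMSO MLL1 list, with a median percentile of 85.8, and 466 of them (36.6%) were in its top 10%. The rule asks for a call in every other DMSO list of MLL1 and Menin, so this rank is not independent of the choice. The median fold was 21.0 at the sites, 9.64 at the other narrow gene-end regions and 23.7 at the wide shared ones. In the NUP98-NSD1 list the mean percentile of the sites was 46.6 and in the Menin list of NUP98-HOXA9 55.9, the shortest of the 6 DMSO lists being the ones in which the sites ranked lowest. In the other 3 lists the mean percentile was 71.3 to 81.6.

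Most sites held a gene start, and the rule itself asks for a gene end within 1 kb. Gene starts with a strand were at hand for all chromosomes with sites but chromosome 18, which left 1227 sites, and 997 of these, 81.3% (interval 79.0% to 83.3%), held an annotated start, against 65.0% of the other narrow gene-end regions and 84.9% of the wide shared ones. Starts on both strands, as at divergent promoters, lay in 9.37% of the sites (interval 7.87% to 11.1%), 4.82% of the other narrow regions and 15.5% of the wide shared ones. Median widths were 759 bp at the sites, 551 bp at the other narrow regions and 1349 bp at the wide shared ones. A wider region can hold more starts, and the part of width in these shares was not tested. At the 882 sites with starts on 1 strand the MLL1 summit lay a median of 41 bp upstream of the start (quartiles 89 bp upstream and 0 bp), and the Menin summit 47 bp upstream. The H3K4me3 summit of 799 of these sites lay a median of 294 bp downstream, with quartiles of 221.5 and 410 bp, and 93.5% of them were downstream. At these sites MLL1 and Menin thus peaked just before the start and H3K4me3 after it. Over the 1135 sites with H3K4me3 in DMSO, its summit lay a median of 364 bp from the MLL1 summit. Positions relative to a start were measured only at narrow sites that hold one, which favours an MLL1 summit near it. The 230 sites without a start are left out, and other classes of region were not measured.

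**Figure D3:**
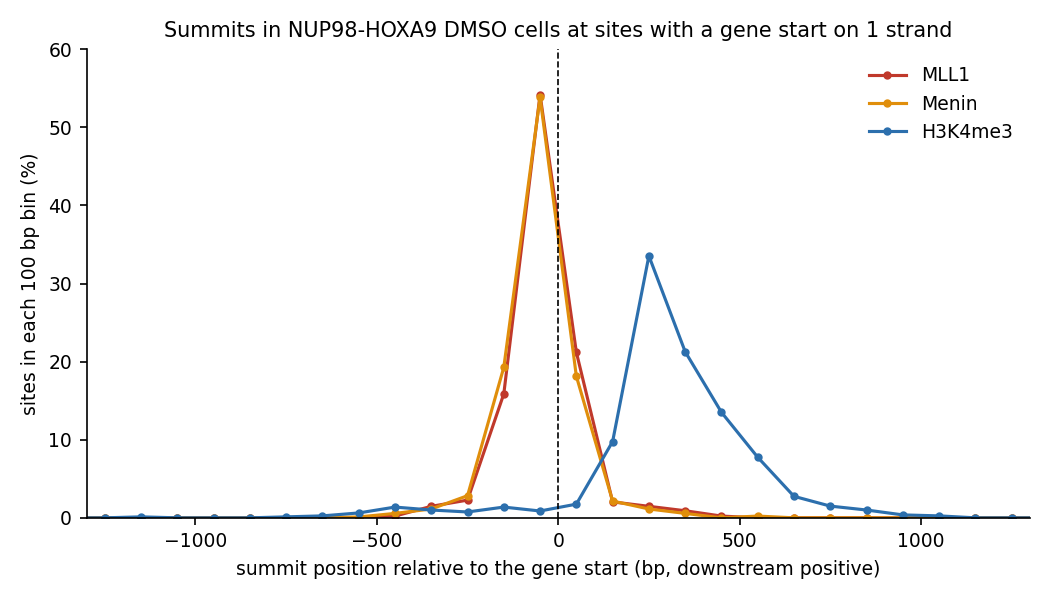
Percent of sites (y axis) whose summit falls in each 100 bp bin relative to the gene start (x axis, downstream positive) for MLL1, Menin and H3K4me3 in NUP98-HOXA9 cells in DMSO, at sites with annotated starts on 1 strand. MLL1 and Menin have medians of 41 and 47 bp upstream of the start and H3K4me3 a median of 294 bp downstream.

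The sites were rich in GC and CpG, and some short motifs were more frequent than at other bound promoters. RefSeq promoter windows, 250 bases before to 50 after a start, that touched a site numbered 1257. Their median GC content was 64% and their observed CpG was 0.87 of that predicted from base composition, against 60% and 0.77 at the other narrow gene-end regions, 66% and 0.88 at the wide shared ones, and 56.3% and 0.57 over all 21238 windows. The ETS motif CCGGAAG, on either strand, occurred in 30.8% of the windows of the sites (interval 28.3% to 33.4%), 23.3% of the other narrow ones (22.1% to 24.6%), 22.5% of the wide shared ones (20.5% to 24.6%) and 11.6% of all. The CREB motif TGACGTCA occurred in 7.88% (6.51% to 9.50%), 3.42% (2.92% to 4.01%), 3.21% (2.45% to 4.18%) and 2.24%. These intervals do not overlap, although windows of 1 gene share sequence. The NRF1 motif GCATGCGC occurred in 9.07%, 6.26%, 7.09% and 3.52%, and the SP motif GGGCGG in 77.0%, 66.2%, 78.7% and 46.2%. Letters of different motifs may overlap, as ETS and SP do at Btbd8.

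Other motifs were less frequent at the sites than at the other bound promoters, or close to them. CCAAT, the NF-Y motif, occurred in 33.2% of the windows of the sites (30.6% to 35.8%), against 42.1% of the other narrow ones (40.6% to 43.6%), 39.2% of the wide shared ones and 38.2% of all. The TATA letters TATAAA occurred in 4.06%, 6.02%, 5.61% and 12.6%, and ACTACAA, part of the ZNF143 motif, in 3.26%, 5.78%, 3.76% and 3.60%. TGATTTAT, a motif of HOXA9 with PBX, occurred in 0.239% of the windows of the sites, 0.331% of the other narrow ones, 0.185% of the wide shared ones and 0.815% of all, and the MEIS letters TGACAG in 14.5%, 17.8%, 14.9% and 18.7%. The motifs AAGATGGC (YY1), TTCCCGC (E2F), CACGTG (E-box), TGTGGT (RUNX) and GAGGAAG (PU.1) were searched on both strands too. YY1 letters occurred in 5.97% of the windows of the sites, 6.00% of the other narrow ones, 4.75% of the wide shared ones and 3.05% of all, and E2F letters in 10.0%, 8.78%, 12.1% and 5.96%. E-box letters occurred in 13.4%, 11.1%, 13.1% and 7.84%, RUNX letters in 11.3%, 12.8%, 9.99% and 15.0%, and PU.1 letters in 13.4%, 12.6%, 13.8% and 13.6%. YY1, E2F and E-box letters were thus more frequent at the sites than over all windows, and so they were at the other bound promoters. A match is a run of letters and not a measured site of binding.

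Where the letters occurred, they often lay near the MLL1 summit. The nearest CREB match was a median of 24.5 bp from the summit in the 99 windows of the sites that hold one, and 69.7% of them lay within 50 bp, against 58.6% of 145 windows at the other narrow regions. ETS matches lay a median of 35 bp from the summit with 59.7% within 50 bp, against 47 bp and 52.3%, and SP matches 32.5 bp with 62.5%, against 35.5 bp and 60.3%. YY1 matches lay farther off, a median of 91.5 bp from the summit and 10.5 bp downstream of the start. MLL1 summits and most of these motifs both lie just upstream of starts, and the part of that shared position was not tested. Arl5b, which encodes a small GTPase of the ARF family and shares its site with Nsun6, shows CREB and ETS letters together in the sequence printed above, with the MLL1 summit 125 bp upstream of the start.

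**Figure D4:**
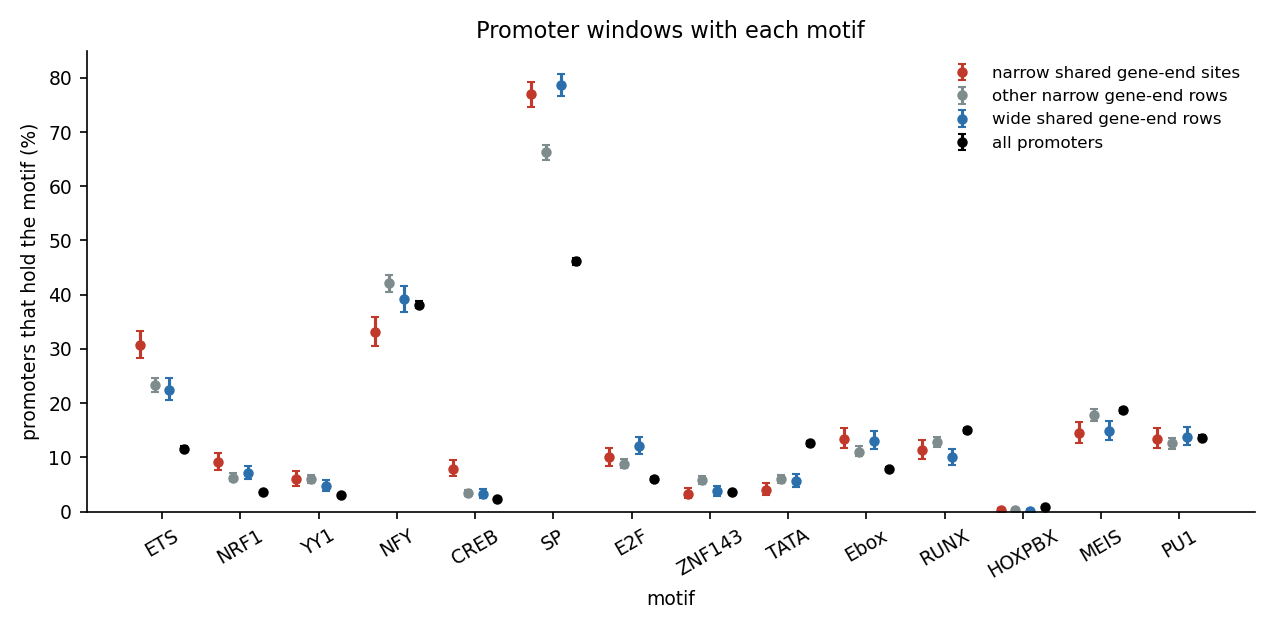
Percent of RefSeq promoter windows (y axis) that hold each motif on either strand (x axis), for windows at narrow shared gene-end sites, other narrow gene-end regions, wide shared gene-end regions and for all windows; bars are 95% Wilson intervals. ETS (30.8%) and CREB (7.88%) are higher and NFY (33.2%) lower at the narrow shared sites than in the other classes of bound promoters.

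The motif shares of sites that kept a protein after VTP50469 differed from those that lost it in no common direction. For MLL1 in NUP98-NSD1, over 129 windows where it stayed and 1128 where it was lost, CREB letters occurred in 11.6% against 7.45%, SP letters in 82.9% against 76.3%, ETS letters in 28.7% against 31.0% and CCAAT in 34.9% against 33.0%. For Menin in NUP98-HOXA9, over 45 windows where it stayed and 1212 where it was lost, CREB letters occurred in 2.22% against 8.09%, SP letters in 91.1% against 76.5%, ETS letters in 40.0% against 30.4% and CCAAT in 17.8% against 33.7%. The NUP98-HOXA9 MLL1 fold was also higher where it stayed, a median of 28.9 against 20.1 for MLL1 in NUP98-NSD1 and 36.8 against 20.4 for Menin in NUP98-HOXA9. With 45 windows these shares are coarse, and no test was made.

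The sites lay at 1510 genes, 6.90% of the 21887 protein-coding genes, counting every gene with an end within 1 kb. Of the sites, 1022 were near 1 gene, 245 near 2 and 5 near 3 or more, and 1493 of the genes had 1 site and 17 had 2. A gene end was inside 1162 sites, 91.4%, against 73.8% of the other narrow gene-end regions, whose median width was 551 bp against 759 bp at the sites. Genes of the transcription, translation and protein-turnover machinery had sites more often than all genes did. Of 39 general transcription factor genes 13 had a site (33.3%, interval 20.6% to 49.0%), of 39 proteasome subunit genes 11 (28.2%, 16.5% to 43.8%), of 56 translation initiation factors 13 (23.2%, 14.1% to 35.8%), of 78 cytosolic ribosomal proteins 18 (23.1%, 15.1% to 33.6%), of 56 spliceosome proteins 12 (21.4%, 12.7% to 33.8%), of 37 DNA repair genes 8 (21.6%), of 28 RNA polymerase subunits 6 (21.4%) and of 42 DNA replication genes 8 (19.0%). The chaperonin, which folds actin and tubulin, had a site at 3 of 10 subunit genes. Most genes of these lists also had some MLL1 region at an end, for example 75 of the 78 cytosolic ribosomal proteins, against 9727 of all genes. Counted over genes with such a region alone, 36.1% of the general transcription factors, 30.6% of the proteasome subunits and 24% of the cytosolic ribosomal proteins had a site, against 15.5% of all. The shares were 26.5% for translation initiation factors, 23.5% for DNA repair, 22.2% for the spliceosome, 21.6% for DNA replication and 21.4% for RNA polymerase subunits. The gap to all genes was thus smaller on this count, for which no intervals were made. Other lists lay nearer to the 15.5% of all genes, with 18.5% of the ubiquitin-conjugating enzymes, 18.2% of the aminoacyl-tRNA synthetases, 17.9% of the Mediator subunits, 17.6% of the solute carriers and 12.9% of the mitochondrial ribosomal proteins.

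Gtf2h5, a subunit of the repair and transcription factor TFIIH, shares its site with Serac1 (chr17:6079497-6080134, fold 37.7), and Taf1a, a subunit of the initiation factor of RNA polymerase I, had a site of fold 29.8. Among proteasome genes, Psmd5 (fold 32.6), Psma2 with Mrpl32 (fold 32.0) and Psmd14 (fold 31.8) ranked first. Fau, which encodes a ubiquitin-like protein fused to ribosomal protein S30, shares a site with Mrpl49 (chr19:6057560-6058189, fold 43.9), the highest among the ribosomal lists. MLL1 there was 670 bp wide after VTP50469 and 630 bp in DMSO in NUP98-HOXA9, 593 bp after VTP50469 and 598 bp in DMSO in NUP98-HOXD13, 1114 bp after VTP50469 and 720 bp in DMSO in NUP98-JARID1A, and absent after VTP50469 and 311 bp in DMSO in NUP98-NSD1. None of the 18 sites at cytosolic ribosomal proteins and none of the 14 at translation initiation factors kept MLL1 in NUP98-NSD1, and none of either kept Menin in NUP98-HOXA9. Over all sites, 9.28% kept MLL1 in NUP98-NSD1 and 3.85% kept Menin in NUP98-HOXA9, and with so few sites a count of 0 is close to these shares. MLL1 stayed in NUP98-NSD1 at 2 of 11 proteasome sites, 2 of 13 general transcription factor sites and 2 of 6 histone sites.

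Eif2b2 (fold 38.3), a subunit of the exchange factor for eIF2, Eif2ak1, the haem-regulated kinase of eIF2, and Eif4e, the cap-binding protein, led the list of translation initiation factors. That list thus also holds a kinase that is not itself an initiation factor. The Eif2b3 site is among the 8 that lost MLL1 from NUP98-HOXD13. Med21 (fold 41.1), Med17 and Med31 led the 5 Mediator genes with a site among 30. Polr2h, Polr2d and Polr2m led the RNA polymerase subunits. Rpa1 (fold 42.8), a subunit of the single-strand binding complex, Gins2, of the replicative helicase, and Pold2, of DNA polymerase delta, led the DNA replication genes, and the Gins2 site kept Menin in NUP98-HOXA9 at 236 bp after VTP50469, against 648 bp in DMSO. Cct2, Cct8 and Cct4 were the chaperonin subunits. Mars2, Nars and Kars led the 6 of 36 aminoacyl-tRNA synthetases, enzymes that load tRNAs.

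Lists near or below the share of all genes included solute carriers, with 25 of 337 (7.42%), and zinc finger genes named Zfp, with 25 of 394 (6.35%). Mitochondrial lists lay a little above it, with 11 of 87 oxidative phosphorylation subunits (12.6%, interval 7.21% to 21.2%), 9 of 78 mitochondrial ribosomal proteins (11.5%, 6.19% to 20.5%) and 2 of 25 mitochondrial import proteins. Olfactory receptors had 0 of 1106, and 6 of them had any MLL1 gene-end region. Of 31 ubiquitin-conjugating enzymes 5 had a site, led by Ube2f, and of 58 Rab GTPases 7, led by Rab7. Of 32 autophagy genes 5 had a site, and those at Atg16l1 and Ulk1 kept Menin in NUP98-HOXA9, at 267 bp after VTP50469 against 705 bp in DMSO and at 260 bp after VTP50469 against 618 bp in DMSO. Over all sites 3.85% kept Menin there. The DMSO Menin folds of these 2 sites in NUP98-HOXA9 were 32.7 and 23.5, against a median of 9.71 over all sites. Of 28 interferon-stimulated genes 2 had a site (7.14%, beside 6.90% of all genes), Stat2 and Bst2. Both kept MLL1 in NUP98-NSD1, at 293 bp after VTP50469 against 891 bp in DMSO and at 440 bp after VTP50469 against 1048 bp in DMSO. Over all sites 9.28% kept MLL1 there. The NUP98-NSD1 DMSO folds of these 2 sites were 19.4 and 15.5, against a median of 5.95 over all sites, and the part of fold was not tested.

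Few or no sites lay at leukaemia and lineage genes, and these small counts do not set the lists apart from all genes. Of 34 menin-MLL leukaemia targets, such as Meis1, Pbx3 and the Hoxa genes, none had one, although 22 had some MLL1 gene-end region and 9 had a wide shared one. None of 22 stem and progenitor regulators, 30 myeloid differentiation genes, 22 lymphoid markers or 13 mast cell and basophil markers had a site. The 1 hit among 20 erythroid and megakaryocyte markers lay 992 bp from an end of Klf1. Of 30 genes often used as housekeeping controls 3 had a site, Rab7, Chmp2a and Psmb4, and 14 had a wide shared region without one. With lists of 13 to 34 genes, a count of 0 leaves upper bounds of 10.2% for the menin-MLL targets and 11.4% for the myeloid genes, which lie above the 6.90% of all genes. The rule also leaves out regions of 1000 bp or wider in advance. Any MLL1 gene-end region lay at only 2 lymphoid, 1 mast cell and basophil and 1 erythroid and megakaryocyte gene of these lists.

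Of 20 genes of the MLL and menin complexes 2 had a site, Kmt2a, which encodes MLL1 itself, and Cxxc1, which encodes a CpG-binding protein of the related SET1 complexes. At Kmt2a (chr9:44881128-44882070, fold 28.4) MLL1 was 958 bp after VTP50469 and 943 bp in DMSO in NUP98-HOXA9, 680 bp after VTP50469 and 921 bp in DMSO in NUP98-HOXD13, 2619 bp after VTP50469 and 1546 bp in DMSO in NUP98-JARID1A, and 364 bp after VTP50469 and 749 bp in DMSO in NUP98-NSD1. Menin there was absent after VTP50469 and 527 bp in DMSO in NUP98-HOXA9. The site at the gene of MLL1 itself is among the 118 called in all 4 treated lists.

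Clustered histone genes, which are transcribed in S phase, gave 9 of 63 genes at 6 sites, and 1 of the 6 sites had H3K4me3 in DMSO, against 89.2% of all sites. Over the whole list 9 of 63 histone genes had H3K4me3 at an end. The first site at H2ac19 and H3c15 (chr3:96238487-96239321, fold 35.8) had H3K4me3 of 786 bp after VTP50469 and none in DMSO. H2ac18 and H3c14 lie beside them as near-identical copies, so reads of one pair may have been placed on the other, and which pair was bound is uncertain.

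**Figure D5:**
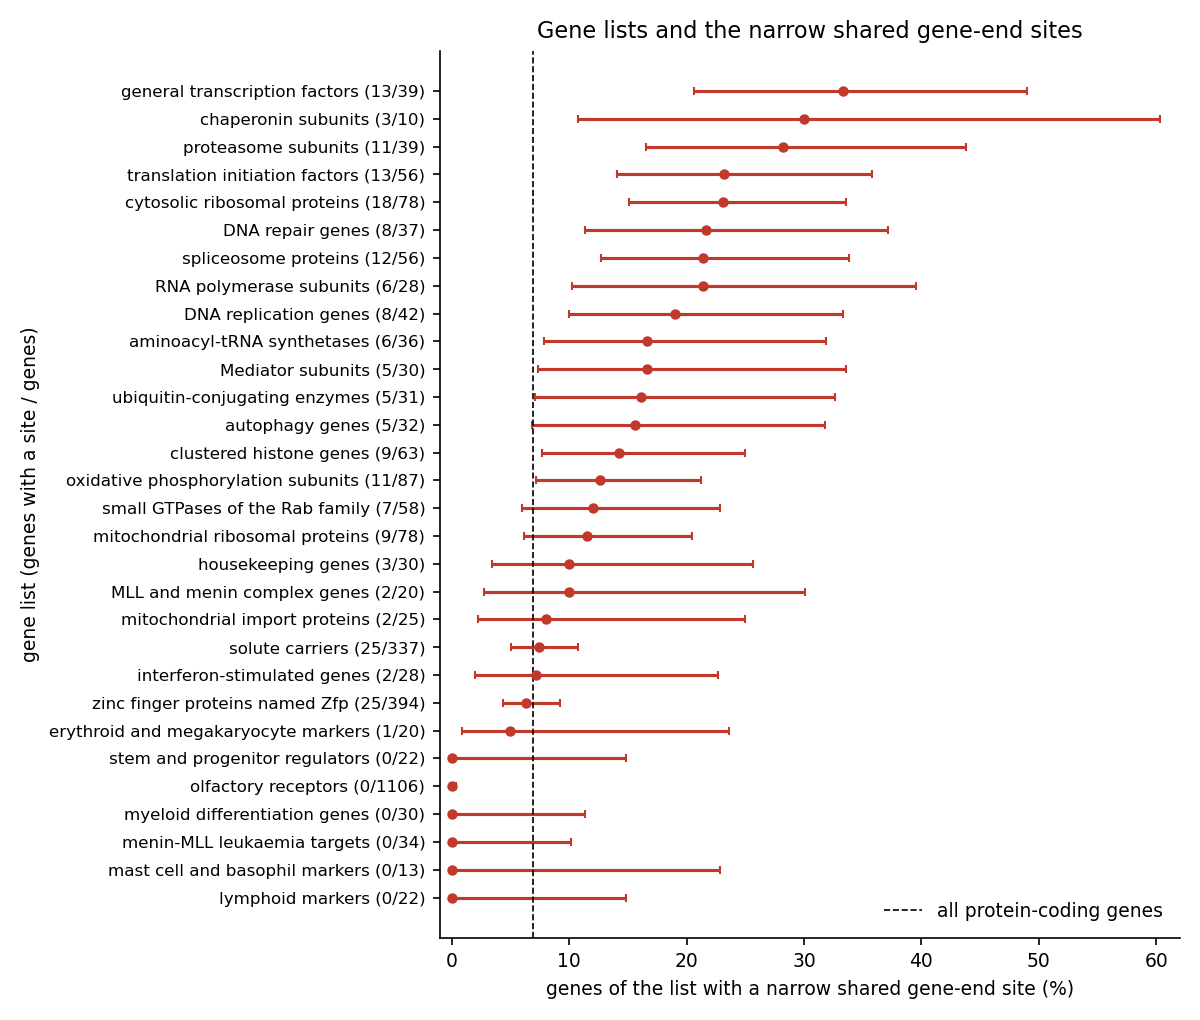
Percent of the genes of each list (x axis) with a narrow shared gene-end site within 1 kb of an end, for 30 gene lists (y axis, with the number of genes with a site and the number of genes); bars are 95% Wilson intervals and the dashed line is the 6.90% of all protein-coding genes. General transcription factors (33.3%), proteasome subunits (28.2%) and translation initiation factors (23.2%) lie to the right of the line, and lineage lists and olfactory receptors at or near 0.

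The limits of the rule cut through a continuum. Just inside the width limit were the site at 1110032A03Rik and Fdxacb1 (chr9:50767759-50768757) and the site at Lmnb1, which encodes lamin B1, both 999 bp wide with folds of 24.1 and 22.7. Just outside were regions of 1000 bp (chr6:128362308-128363307, fold 12.8) and 1001 bp (chr14:20793755-20794755, fold 16.4), both over a gene end. Just inside the distance limit were the sites 1000 bp from 9430038I01Rik (fold 31.1) and 992 bp from Klf1 (fold 11.0), and just outside were regions 1031 bp (chr7:25076725-25077673, fold 34.6) and 1035 bp (chr8:91133721-91134459, fold 35.6) from the nearest end.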

How the data were processed

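ChIP-seq peak lists of 14 libraries of mouse leukaemia cells were used, 1 list per library. The submitters' processing notes name MACS2, STAR 2.7.5a, Picard 2.9.4, bcl2fastq 2.20.0.422, SAMtools and bedtools and the build mm10. Tool settings, and which input served each list, were not given in the sources used. Each deposited row has an interval, a fold enrichment (a ratio that the authors' peak caller made), −log10 q and a summit. The weakest deposited −log10 q was 2.00 to 2.07 in every list. Depth is unknown.

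A DMSO region counts as lost when no region of the treated list shares 1 bp with it. Gene ends came from the RefSeq gene table (GRCm38.p6, 21887 protein-coding genes), which gives no strand. Starts, strands and sequences came from the RefSeq promoter table, in which 17470 genes and 1231 of the 1510 genes with a site matched, none on chromosome 18. Wilson 95% intervals and a limit of 3 counts for a share of 0 cover counting error only. Each condition has 1 library, so no p-value was made. Overlap counting was tested on simulated intervals.

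Members, 30 gene lists and 14 motifs were chosen with earlier results of these data known. Named sites are the 6 of highest NUP98-HOXA9 fold with MLL1 in all treated lists, or lost from 3 or 4 of them or from NUP98-HOXA9 (none), or with Menin kept in NUP98-HOXA9, the 4 of highest fold without H3K4me3, those nearest the limits of the rule, and the first 3 of a list. Others are named as seen after. Alternatives were a 250 bp window, a width under 500 bp, a 50% overlap, −log10 q of 5 or more and lists of equal length. Python 3.11.15, numpy 2.4.6, pandas 2.3.3, scipy 1.17.1 and matplotlib 3.10.9 were used.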

Additional observations from a re-analysis of the deposited data

Results flagged for a closer look

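The median ratio of MLL1 width after VTP50469 to width in DMSO at the kept sites lay on different sides of 1 in different lines. It was 1.16 for NUP98-JARID1A, 0.97 for NUP98-HOXA9, 0.74 for NUP98-HOXD13 and 0.59 for NUP98-NSD1. The difference between lines was not tested, since each condition has 1 library. The treated MLL1 list was longer than the DMSO list in NUP98-JARID1A alone, with 24950 regions after VTP50469 and 15765 in DMSO, and the part of list length in these ratios was not tested.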

How the results depend on the processing

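Of 39 alternatives, 22 left the value within its interval or its count within 1.5 times, and 17 moved it. The 1272 sites became 514 when 50% of a site had to be covered in each DMSO list, 51 with a width under 500 bp, 1206 with a 250 bp window and 897 with −log10 q of 5 or more. With a 50% overlap the shares lost were 0.550% (MLL1, NUP98-HOXA9), 5.77% (MLL1, NUP98-HOXD13), 96.9% (MLL1, NUP98-NSD1), 99.7% (Menin, NUP98-HOXA9), 2.76% (Menin, NUP98-HOXD13) and 15.8% (H3K4me3). At widths under 500 bp they were 5.88% (MLL1, NUP98-HOXD13), 96.1% (MLL1, NUP98-NSD1), 98.0% (Menin, NUP98-HOXA9), 1.96% (Menin, NUP98-HOXD13) and 10% (H3K4me3), over at most 51 sites. With both lists of a pair cut to the length of the shorter by fold, 78.8% of the 99 sites still in the NUP98-NSD1 DMSO list and 60.9% of the 69 in the NUP98-HOXA9 Menin list were lost, and 1.65% for MLL1 in NUP98-JARID1A. With −log10 q of 5 or more, 97.2% lost Menin in NUP98-HOXA9. Under every alternative run, MLL1 of NUP98-NSD1 and Menin of NUP98-HOXA9 were lost from at least 60.9% of the sites that the alternative could count. Every other loss was at most 15.8%. With lists of equal length only 99 and 69 of the 1272 sites could be counted for these 2 pairs, those of highest DMSO fold. That alternative therefore says nothing of the remaining sites. The cause of a move was not tested beyond the shorter lists, stricter overlaps and smaller numbers of sites that the alternatives themselves set. No paired analysis was possible because each condition has 1 library. Unknown depth limits every loss: a site below the calling limit and a site without enrichment look the same.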

Other observations

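The X chromosome held 2 of the 1272 sites, 0.157%, against 3.68% of the other narrow gene-end regions. Narrow gene-end regions on X were shared less often than such regions on any chromosome in each of the other DMSO lists that the rule uses, and least often in NUP98-NSD1. Of the 201 narrow gene-end MLL1 regions on X in NUP98-HOXA9 in DMSO, 12 (5.97%) were shared with NUP98-NSD1, against 33.0% of such regions on any chromosome. Shared with NUP98-HOXD13 were 85.1% of the X regions and 90.8% of all, and with NUP98-JARID1A 61.2% and 80.2%. With Menin of NUP98-HOXA9 they were 32.3% and 49.3%, and with Menin of NUP98-HOXD13 81.6% and 87.1%. Of all DMSO MLL1 regions, X held 0.408% in NUP98-NSD1, 2.06% in NUP98-HOXA9, 1.79% in NUP98-HOXD13 and 1.70% in NUP98-JARID1A. The sites therefore say little of X-linked promoters.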
